A study of Mus musculus with 2 samples.

Results

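The cells described here are the columnar epithelial cells of the mouse gastroesophageal squamocolumnar junction (GE-SCJ) before birth. They were chosen by the deposited class of each cell, columnar epithelial, and by the tag of the dissected junction at embryonic day 15 (E15, 53 cells) or E19 (274 cells). These 327 cells are part of 1540 columnar cells among 7808 cells in all. Each gene was read in them beside the columnar cells of the stomach tag of the same stage (140 cells at E15 and 366 at E19). The study profiled esophagus, GE-SCJ and stomach of wild-type C57BL/6 mice, with no transgene or treatment, at E15, E19, day 2 after birth (pup) and 8 weeks (adult). Each piece was minced, dissociated with collagenase and TrypLE and given its own oligonucleotide tag, and all tagged cells went into 1 droplet library. The labels give 6 animals at E15 and 2 at E19, while the methods speak of cells combined from 3 mice. Animals were pooled within a tag and cannot be told apart, so a group is 1 sample, differences have no replicate check, and none was tested. The sequences that decide which region and stage a cell belongs to are the multiplexing tags, printed 5′ to 3′, which differ from each other at 11 to 14 of their 15 bases.
GE-SCJ at E15 (CMO302): catgccaatagagcg
stomach at E15 (CMO303): ccgtcgtccaagcat
GE-SCJ at E19 (CMO305): cgcgatatggtcgga
stomach at E19 (CMO306): aagatgaggtctgtg

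At the GE-SCJ the stratified squamous epithelium that lines the esophagus, and in the mouse the forestomach, meets the single layer of columnar cells that lines the glandular stomach. Columnar cells carry the simple keratins Krt8 and Krt18, the gastric tight junction protein Cldn18 and Agr2, a disulfide isomerase of mucus-making cells. During the last days before birth the gastric lining moves from a fetal endoderm towards pit, neck, chief, parietal and endocrine cells. Transcription factors mark positions along this tube, among them Sox2 towards its front end and the homeobox factors Nkx6-3 and Pdx1 towards the antrum and duodenum, while Hox genes are used in order along its length.

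The columnar cells were 53 of 672 cells with the E15 GE-SCJ tag (7.89%) and 274 of 1304 with the E19 tag (21.0%). Of the epithelial cells alone they made up 53.0% at E15 (53 of 100, exact 95% binomial interval 42.8 to 63.1) and 89.0% at E19 (274 of 308, 84.9 to 92.2), the others being 47 and 34 squamous cells. The 2 GE-SCJ groups held 1323799 and 7164025 unique molecules (unique molecular identifiers, UMIs) in all, against 3861330 and 9547554 in the stomach groups. Per cell the medians were close, at 24673 UMIs in both E15 groups and 24443 and 24241 in GE-SCJ and stomach cells at E19. Levels are given as counts per 1000000 UMIs of the group (CPM), summed over its cells, so 3 UMIs, the count that a 0 allows, stand for 2.27 CPM in the E15 and 0.419 CPM in the E19 GE-SCJ group. Ratios are given as the log2 of GE-SCJ over stomach CPM with 1 UMI added to each sum. A gene was readable with at least 100 UMIs over both groups and past 2-fold, with no test, at a log2 ratio of 1 or more either way. Intervals cover counting error only, since neither animals nor dissections are replicated.

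The label was checked against its markers. All 4 were detected in both GE-SCJ groups. Krt8 stood at 1298 and 2216 CPM in E15 and E19 GE-SCJ cells and at 1359.9 and 2585 CPM in stomach cells, Krt18 at 783 and 977 CPM against 832 and 994, and Cldn18 at 881 and 1127 CPM against 1029.7 and 1226. These 3 genes differed little between the regions. Agr2 stood at 344 CPM in E15 GE-SCJ cells and 943 CPM in E15 stomach cells, a log2 ratio of -1.45 (95% interval -1.60 to -1.31), and at 1002 and 1074 CPM at E19. The summed level of the 4 markers, 3305 and 5322 CPM, compares with 231 and 399 CPM in the 25 and 66 immune cells of the same tags, which set the level that free RNA of the droplet library can give. Since the class was made from the expression of these same cells, the markers check the label and are no finding.

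The following features of the groups bear on every comparison below. Markers of squamous cells summed to 206 and 275 CPM in E15 and E19 GE-SCJ columnar cells, 192 and 263 CPM in stomach columnar cells and 7389.7 CPM in the squamous cells of the E15 junction. Sfn was the most abundant of these 11 genes and 1 was at 0 at E15. The 7 fibroblast markers, led by Col1a1 at E15, summed to 835 and 541 CPM in GE-SCJ cells against 371 and 439.7 CPM in stomach cells, with 1 of the 7 at 0 in E15 GE-SCJ cells. At E15, 3 of 4 readable fibroblast markers (Col1a1, Col1a2 and Dcn) were past 2-fold higher in GE-SCJ cells, as were 0.796% of all readable genes, and none was within cells with Y-linked UMIs and no Xist or in cells called columnar by the marker genes. Within cells with Xist and no Y-linked UMI all 4 were, with Col1a1 at 1.34, Col1a2 at 2.21 and Dcn at 2.78 on the log2 scale, and at E19 4 of 5 readable ones were there, where none was in the sums. Of all genes readable within those cells, 42 of 1332 at E15 and 110 of 7653 at E19 were past 2-fold higher. The fibroblast-type cells of the same tags held 14938 and 23213 CPM, and the part of their RNA in the genes below was not tested beyond leaving out cells with 5 or more such UMIs, which kept 21 of 53 and 119 of 274 GE-SCJ cells. The 6 smooth muscle markers, led by Acta2, summed to 318, 215, 169 and 283 CPM in E15 GE-SCJ, E15 stomach, E19 GE-SCJ and E19 stomach cells. The 7 immune markers summed to 9.06 and 8.38 CPM in E15 and E19 GE-SCJ cells and 11.9 and 28.4 CPM in stomach cells, with 42.8% of the E19 stomach UMIs in 1 cell, while the 6 erythroid genes, led by Hbb-bs, reached 246, 294, 493 and 1814 CPM in E15 GE-SCJ, E15 stomach, E19 GE-SCJ and E19 stomach cells. Cells with Xist and no Y-linked UMI (Xist-only cells) were 16 of 53 and 183 of 274 in the GE-SCJ groups (30.2% and 66.8%) against 19 of 140 and 121 of 366 in the stomach groups (13.6% and 33.1%). Both Xist and Y-linked UMIs were found in 16 and 34 GE-SCJ cells and in 51 and 103 stomach cells. Whether those cells are doublets or hold free RNA was not tested, so Xist-only cells and cells with Y-linked UMIs and no Xist (Y-linked cells) stand for female and male cells only as far as these UMIs go. Sex of the pooled animals and region cannot be told apart in the sums, and key genes are also given within cells of 1 kind.

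Seen as whole profiles, the columnar cells of the 2 regions were alike. Over 10260 genes the Pearson correlation of log2(CPM + 10) between GE-SCJ and stomach columnar cells was 0.974 at E15 and 0.987 at E19, and that between E15 and E19 GE-SCJ cells was 0.962 (across genes, which are not independent replicates). Even so, cells had more neighbours of their own region than cell numbers alone give, although most neighbours of E15 GE-SCJ cells were stomach cells. Among the 15 nearest columnar cells of the same stage, GE-SCJ cells made up 39.2% of the neighbours of GE-SCJ cells at E15 where cell numbers alone give 27.1%, and 55.5% at E19 where numbers give 42.7%. Stomach cells had 18.2% and 35.7% GE-SCJ neighbours, below the 27.6% and 42.9% of their numbers. With 50 neighbours the GE-SCJ shares were 34.4% and 54.4% around GE-SCJ cells and 24.5% and 38.7% around stomach cells. Sex-linked and fibroblast genes were not left out of this step, and their part in it was not tested.

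Most genes lay close to equality. At E15, 52 of 6534 genes with at least 100 UMIs over both groups (0.796%) were at least 2-fold higher in GE-SCJ than in stomach columnar cells and 54 (0.826%) at least 2-fold lower. By the mean of each cell's CPM in place of summed UMIs these counts were 38 and 69. At E19, 48 of 9591 (0.5%) were higher and 105 (1.09%) lower, but 110 and 143 in Xist-only cells and 33 and 35 in Y-linked cells. The median log2 ratio over all genes was 0.05 at E15 and 0.01 at E19, and 88.1% and 92.5% of genes lay within 0.5 of 0. Of 6525 genes readable at both stages, 12 (0.184%) were past 2-fold higher at both, namely Zdbf2, Igfbp2, Atf3, Ptn, Depp1, Muc5ac, Grb10, Dbn1, Nr4a1, Abi3bp, Tsix and Xist. Another 15 (0.23%) were past 2-fold lower at both, namely Vil1, Meis2, Gstm3, Spink4, Spp1, Gkn3, Acsm3, Nkx6-2, Nkx6-3, Serpinf2, Gast, Pyy, Olfm4, Onecut2 and Rbp4. Olfm4 turned from -1.005 to 0.814 in Xist-only cells at E15 and came from -1.625 to -0.821 in Y-linked cells at E19. Within Xist-only cells 18 genes were past 2-fold at both stages, 5 of them among these 27, within cells with Y-linked UMIs and no Xist 9, with 4 of the 27, and without cells holding 5 or more fibroblast marker UMIs 10, with 6 of the 27. Those cells left 1330, 3426 and 2446 readable genes of the 6525. Among the 99 of these genes past the fold at E15, 84 had the same direction at E19, and among the 65 past it at E19, 50 had the same direction at E15, where 59.5% of all 6525 genes had the same sign at both stages, while 6 were past it in opposite directions. The log2 ratios of both stages correlated at 0.348 over the 6525 genes (a description across genes). The stages come from different animals and different tags, but they share the droplet library and its free RNA.

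Igfbp2, which encodes a secreted binding protein of the insulin-like growth factors, ranked first among the genes higher in GE-SCJ columnar cells at both stages. It stood at 555 CPM in E15 GE-SCJ cells, 117 in E15 stomach cells, 192 in E19 GE-SCJ cells and 39.9 in E19 stomach cells, with UMIs in 48 of 53, 91 of 140, 205 of 274 and 119 of 366 cells. Both GE-SCJ groups were therefore high against the stomach group of their stage, and both regions were lower at E19. The log2 ratio was 2.25 (95% interval 2.08 to 2.42) at E15 and 2.27 (95% interval 2.10 to 2.43) at E19. Within cells with Xist and no Y-linked UMI it was 2.78 and 3.55, within cells with Y-linked UMIs and no Xist 2.23 and 2.02, and without cells holding 5 or more UMIs of fibroblast markers 2.22 and 2.16. Immune cells of the GE-SCJ tags held 3.16 and 16.4 CPM of Igfbp2, and the squamous cells of the same junctions 1033 and 575 CPM, more than the columnar cells. In columnar cells after birth Igfbp2 stood at 124 CPM in the GE-SCJ and 102 in the stomach of pups. The gene lies at chr1:72824503-72852474, forward strand (GRCm38, gene body in GENCODE M21).

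Grb10, an imprinted adaptor that restrains insulin and IGF receptor signalling, was likewise higher in GE-SCJ than in stomach cells at each stage, with 194, 76.7, 56.3 and 27.3 CPM in E15 GE-SCJ, E15 stomach, E19 GE-SCJ and E19 stomach cells. Its log2 ratios were 1.34 (95% interval 1.09 to 1.59) and 1.04 (95% interval 0.81 to 1.27), the second of which came to 0.47 without cells holding fibroblast marker UMIs. The list of fetal and imprinted genes had 2 of 13 readable members past 2-fold higher at E15 (Grb10 and Ptn) and 3 of 14 at E19 (Grb10, Mdk and Ptn), none lower, beside 0.796% and 0.5% of all genes, with list medians of 0.22 and 0.30 against 0.05 and 0.01 over all genes. Mdk and Ptn encode the heparin-binding growth factors midkine and pleiotrophin. Mdk stood at 907 and 608 CPM at E15 and at 106 and 39.3 CPM at E19 in GE-SCJ and stomach cells, a ratio of 1.43 (95% interval 1.25 to 1.61) at E19. Ptn stood at 79.3, 21.0, 35.0 and 9.74 CPM in the same order. Its level in the fibroblast-type cells of the GE-SCJ tags, 840.2 and 740.4 CPM, was far above that in columnar cells, and the E15 ratio of 1.92 came to 0.70 without cells holding fibroblast marker UMIs and to -0.01 within Y-linked cells, where the E19 ratio of 1.84 came to 0.64. Among the 6 embryonic precursor genes, Sox11, a high-mobility-group factor of immature tissues, reached 442 and 245 CPM at E15 and 138 and 52.8 CPM at E19. In the sums it was the only one of the 6 past 2-fold at E19 (log2 1.38, and 0.88 within Y-linked cells), and none was at E15. Within cells of 1 kind the E15 ratio of Sox11 was 1.51 in Y-linked and 0.46 in Xist-only cells. Those of Igf2 and the proteoglycan gene Vcan were 1.03 and 2.84 in Xist-only cells and 0.245 and -0.92 in Y-linked cells. The non-coding H19, also imprinted, stood at 4099 and 3475 CPM at E15 and 2699 and 1404 CPM at E19, where its ratio of 0.94 was 1.28 in Xist-only and 1.10 in Y-linked cells, past 2-fold in both. Its partner Igf2, a fetal growth factor, stood at 900.4 and 652 CPM and then at 447 and 248 CPM. The E19 ratio of Igf2, 0.85, was 1.19 and 1.03 within the same 2 kinds of cell. Without cells holding fibroblast marker UMIs the E19 ratios of H19 and Igf2 came to 0.75 and 0.55, short of 2-fold.

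**Figure D1:**
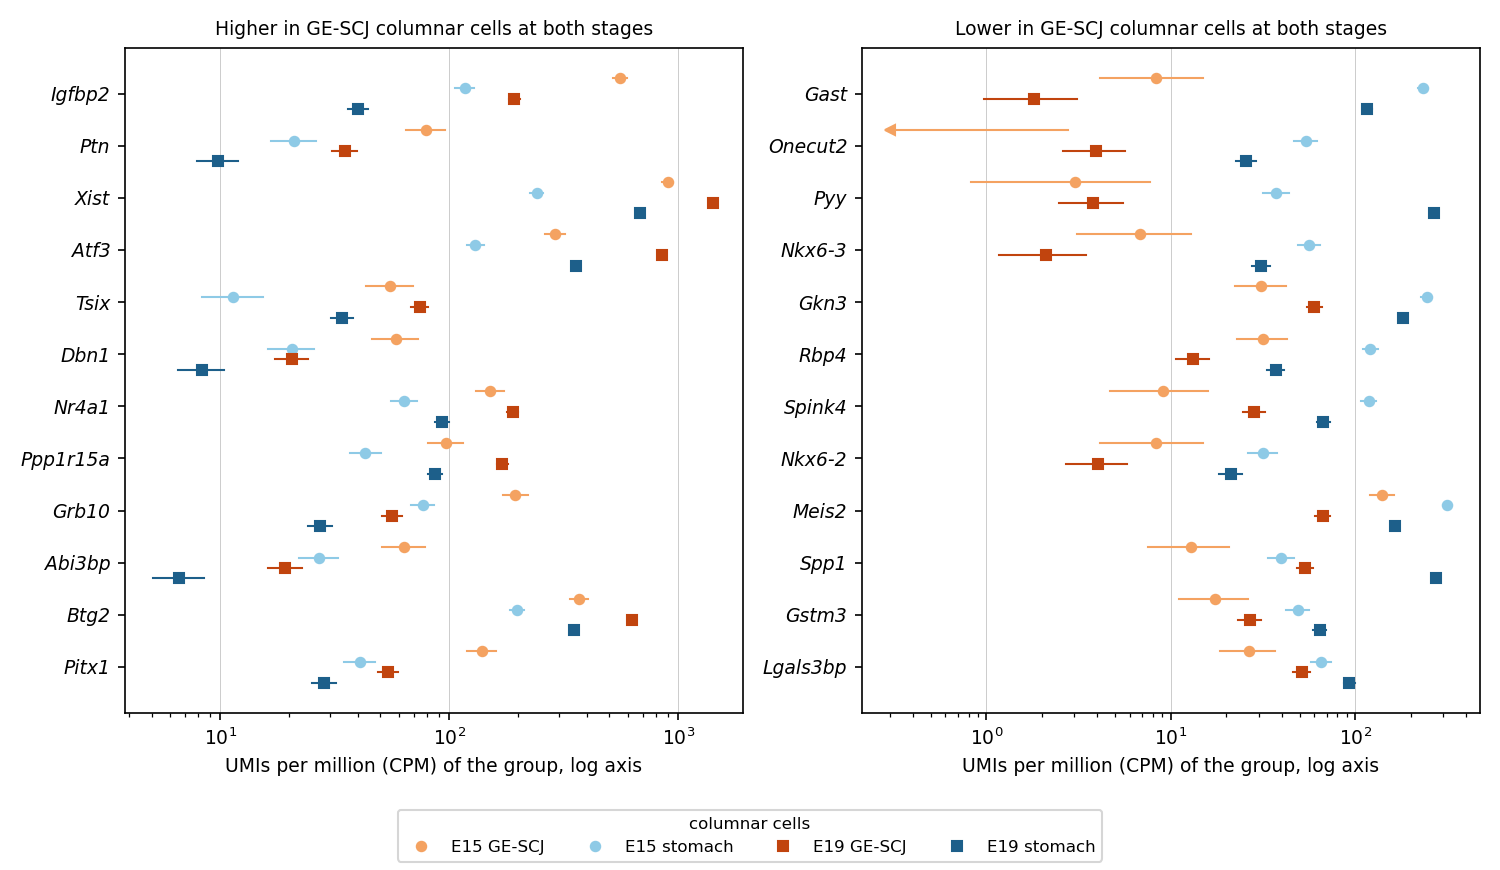
Summed level (CPM, log axis) with exact 95% Poisson intervals in the 4 prenatal columnar groups, for the 12 genes higher and the 12 lower in GE-SCJ cells at both stages that the rule ranked first (by the interval bound nearest 0), with no account of how they held under other settings; an arrow at the left marks a group with 0 UMIs. Igfbp2 reads 555 against 117 CPM at E15 and Meis2 139.7 against 315 CPM.

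Some transcription factors differed between the regions. Pitx1, a homeobox factor best known from the hindlimb and pituitary, stood at 138 CPM in E15 GE-SCJ cells and 40.7 in E15 stomach cells, and at 54.2 and 28.3 CPM at E19. The E15 groups lay 3.40-fold apart and the E19 groups just under 2-fold, with log2 ratios of 1.76 (95% interval 1.45 to 2.08) and 0.94 (95% interval 0.71 to 1.17). Squamous cells of the junction held more, 529.7 and 243 CPM, and immune cells 15.8 and 29.0 CPM. Without cells holding fibroblast marker UMIs the ratios were 2.18 and 1.18. Irx5, an Iroquois homeobox factor, was near absent from stomach cells, with UMIs in 16 of 53, 2 of 140, 93 of 274 and 15 of 366 cells and levels of 21.2, 0.518, 20.7 and 2.20 CPM. Its E19 ratio was 3.17 (95% interval 2.52 to 3.89), its UMIs at E15 were too few for the 100 UMI minimum, and immune cells of both GE-SCJ tags held none. Squamous cells of the junction held Irx5 more often, in 22 of 47 cells at E15 and 13 of 34 at E19. In pups the columnar cells of the GE-SCJ were again above those of the stomach, at 15.1 against 1.23 CPM, with no replicate there either.

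In the list of squamous and anterior foregut factors, 2 of 4 readable members were past 2-fold higher at E15 (Sox2 and Pitx1), beside 0.796% of all genes, and none of 4 at E19. Sox2, which patterns the front of the gut tube, stood at 194 and 90.1 CPM at E15 and 85.7 and 63.1 CPM at E19, ratios of 1.11 (95% interval 0.87 to 1.34) and 0.44 (95% interval 0.28 to 0.61). Without cells holding fibroblast marker UMIs the E15 ratio was 0.62, short of 2-fold. Hoxc4 was the readable member of 18 Hox genes at E19, where it was past 2-fold higher. It stood at 40.8, 6.22, 11.3 and 3.25 CPM in E15 GE-SCJ, E15 stomach, E19 GE-SCJ and E19 stomach cells, with an E19 ratio of 1.77 (95% interval 1.17 to 2.41). In the squamous cells of the junction Hoxc4 stood at 77.4 CPM at E15 and 40.8 at E19. The defining squamous factor Trp63 was held by few columnar cells, 2 of 53 and 7 of 274 in the GE-SCJ groups and 9 of 140 and 8 of 366 in the stomach groups, at 3.02, 1.26, 2.33 and 1.36 CPM.

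Nkx6-3 was low in GE-SCJ columnar cells at both stages. This homeobox factor of the antrum stood at 6.80 and 56.2 CPM in E15 GE-SCJ and stomach cells and at 2.09 and 30.9 CPM at E19, with UMIs in 4 of 53, 63 of 140, 9 of 274 and 99 of 366 cells. The ratios were -2.90 (95% interval -3.98 to -1.995) and -3.79 (95% interval -4.62 to -3.07), and it was the lone member of 15 readable columnar endoderm factors past 2-fold at E15, where 0.826% of all genes were lower. Within Xist-only cells they were -2.89 and -4.42, and within Y-linked cells -4.45 and -4.54. At E19 Pdx1, a homeobox factor of antrum, duodenum and pancreas, was the other member past 2-fold of 18 (beside 1.09% of all genes lower), at 2.23 CPM in 12 cells against 11.5 CPM in 65 stomach cells, a ratio of -2.29 that came to -0.35 without cells holding fibroblast marker UMIs. At E15 its UMI was found in 1 GE-SCJ cell and 36 stomach cells. Nkx6-2 stood at 8.31, 31.6, 4.05 and 21.2 CPM, with an E15 ratio of -1.81 that came to -0.77 in Xist-only cells. Onecut2, a factor of endoderm development, had no UMI in E15 GE-SCJ cells against 53.9 CPM in stomach cells (at least 23.8-fold lower, against 3 counts) and 3.91 against 25.7 CPM at E19. Meis2, a widely expressed homeobox cofactor, was found in most stomach cells, at 315 and 165 CPM, and at 139.7 and 66.6 CPM in GE-SCJ cells, ratios of -1.17 (95% interval -1.40 to -0.94) and -1.31 (95% interval -1.46 to -1.16). The E15 ratio was -0.77 in Xist-only cells and -2.87 in Y-linked cells. The general endoderm factors did not follow this order. Gata4 stood at 106 and 105 CPM at E15 and 77.2 and 85.7 CPM at E19, and Gata6 at 175, 174, 194 and 174 CPM. The medians of the list, -0.01 and -0.13, lay near those of all genes. The labels do not say which stretches of the stomach its tag held, so distance from the antrum and distance from the junction cannot be told apart.

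Shares of cells with a UMI gave the same order when every cell was thinned to 5000 UMIs, which left out 1 and 8 GE-SCJ cells and 1 and 21 stomach cells. Igfbp2 was then seen in 73.1% of E15 GE-SCJ cells, 30.9% of E15 stomach cells, 45.1% of E19 GE-SCJ cells and 12.8% of E19 stomach cells, where immune cells of the GE-SCJ tags gave 4.55% and 9.09%. Pitx1 was seen in 46.2%, 14.4%, 21.1% and 12.8%, with 9.09% and 13.6% in immune cells, so that at E19 the stomach share lay at the immune background. Irx5 was seen in 15.4%, 0.719%, 9.40% and 1.74% and in no immune cell of the GE-SCJ tags. Of the immune cells of the E19 stomach tag 1.64% held it, near the E19 stomach share. In the other direction Meis2 was seen in 30.8%, 71.2%, 24.4% and 49.9%, and Nkx6-3 in 1.92%, 18.7%, 1.13% and 11.6%. Unthinned, Igfbp2 was seen in 90.6%, 65.0%, 74.8% and 32.5% and Meis2 in 73.6%, 96.4%, 60.2% and 84.2% of cells in the same order. The median depth of the immune cells was 12423 UMIs at E15.

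**Figure D2:**
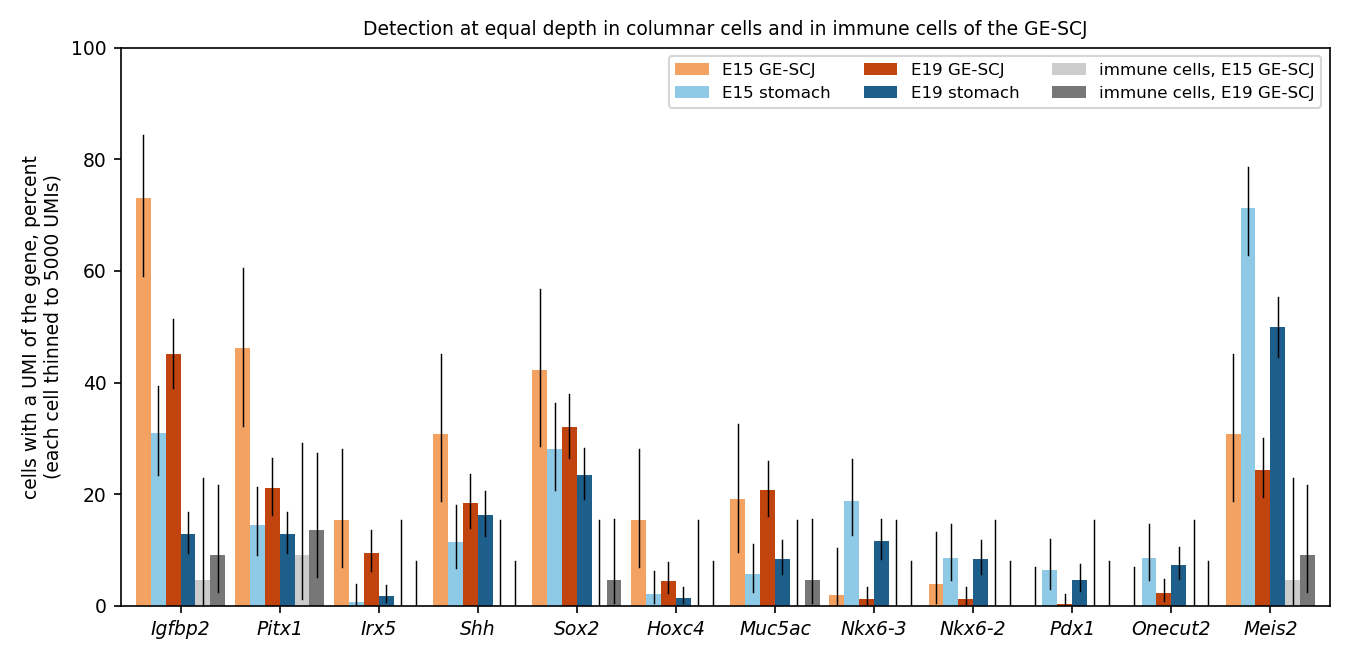
Share of cells (percent) with at least 1 UMI of 12 genes after thinning each cell to 5000 UMIs, in GE-SCJ and stomach columnar cells at E15 and E19 and in the immune cells of the GE-SCJ tags, with exact 95% binomial intervals. Irx5 reaches 15.4% and 9.40% in GE-SCJ cells, and Meis2 reaches 71.2% in E15 stomach cells against 30.8% in E15 GE-SCJ cells.

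Of the gastric secretions, the regions stood apart at E15 in Cym, the milk-clotting protease chymosin of the newborn stomach. It stood at 21894 CPM in E15 GE-SCJ cells, 5135 in E15 stomach cells, 47956 in E19 GE-SCJ cells and 36498 in E19 stomach cells. E15 GE-SCJ cells were thus well above their stomach counterparts, with a log2 ratio of 2.09 (95% interval 2.07 to 2.12), while the E19 ratio was 0.39 (95% interval 0.39 to 0.40). Cell by cell the E15 GE-SCJ median was 21113 CPM (lowest 784, highest 71353) against 1352 CPM in the stomach (lowest 339, highest 46015), so the ranges overlapped and the medians lay far apart. At E19 the medians were 43573 and 34546 CPM. Free RNA was high for this gene, with 1128 and 2702 CPM in immune cells of the GE-SCJ tags, far below the GE-SCJ sums. The median E15 stomach cell lay near the 1007 CPM of the immune cells of its own tag, well under the E15 stomach sum, which the cells at the upper end raised. The E15 ratio was 2.05 in Xist-only cells, 2.26 in Y-linked cells and 2.72 without cells holding fibroblast marker UMIs. The E19 ratio was 1.07 in Xist-only cells, past 2-fold, and 0.32 in Y-linked cells.

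**Figure D3:**
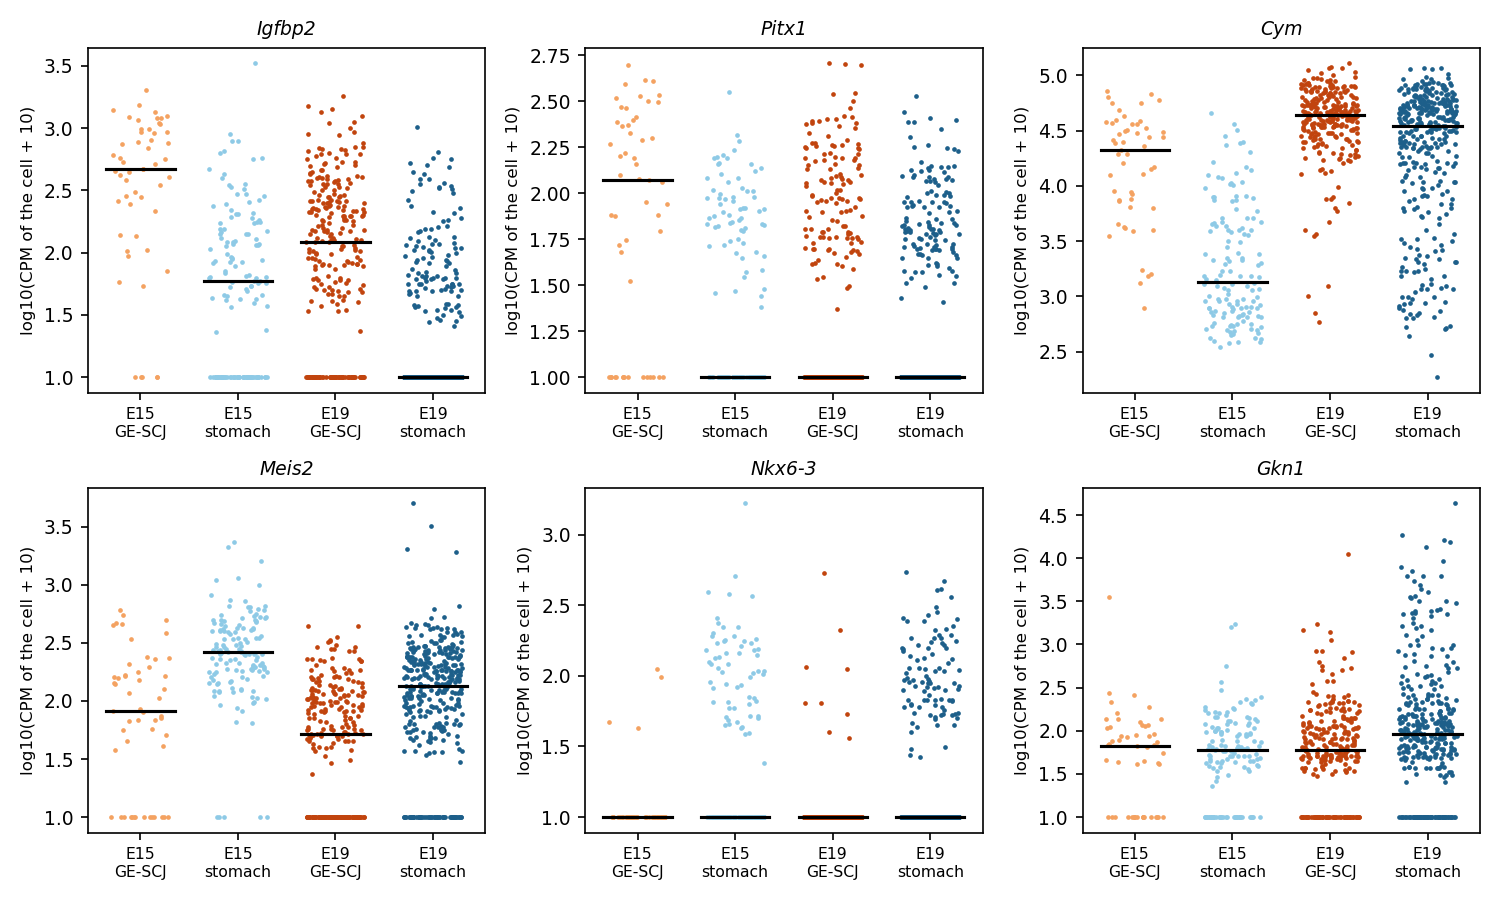
Level of 6 genes in each columnar cell as log10(CPM + 10), 1 point per cell, with a bar at the median of each of the 4 groups. The Cym medians are 21113 CPM in E15 GE-SCJ and 1352 CPM in E15 stomach cells, and the Igfbp2 medians 463 and 49.4 CPM.

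The other chief cell genes did not share the E15 pattern. Pga5, which encodes a pepsinogen, stood at 632 and 787 CPM at E15, near the 568 CPM of immune cells, and at 6180.5 and 6939 CPM at E19. Pgc, the other pepsinogen precursor, stood at 639 CPM in E15 GE-SCJ cells, below the 891 CPM of immune cells, against 1718 CPM in E15 stomach cells. The E15 ratio of -1.43 moved to -0.46 when the 1% of cells with the most Pgc were left out, and it was 0.13 in Xist-only and -0.11 in Y-linked cells. Of the chief cell list, 1 of 4 readable genes was higher (Cym) and 1 lower (Pgc) past 2-fold at E15, beside 0.796% and 0.826% of all genes, and none of 5 at E19. Within Xist-only cells 3 of the 5 were past 2-fold higher at E19, as were 110 of 7653 genes readable there. Muc6, the gel mucin of neck and antral gland cells, stood at 31.7 and 209 CPM at E15, with 56.8% of the stomach UMIs in 1 cell and the GE-SCJ level again below that of immune cells (44.2 CPM), and at 60.2 and 91.1 CPM at E19. Its E15 ratio of -2.69 came to -0.64 in Y-linked cells. No parietal cell gene was past 2-fold at either stage in the sums (0 of 7 and 0 of 9). At E19, however, 4 were higher and 1 lower within Xist-only cells and 4 lower within Y-linked cells, among them Atp4a at 1.80 and -1.28. Over all genes at E19, 110 of 7653 were higher and 143 lower in Xist-only cells. In Y-linked cells 33 of 5157 were higher and 35 lower.

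Genes of the pit cell list, most of which encode proteins of the surface mucus, parted at E19. Of 7 readable members 1 was past 2-fold higher and 4 lower in E19 GE-SCJ cells (list median -1.45). All genes gave 0.5% and 1.09%, and E15 had 1 list member higher and 1 lower. The list also holds Gkn3, which the paper counts among markers of the neck and isthmus region. Gkn3 was 1 of the 4 lower at E19 and the 1 lower at E15. Gkn1, the stomach mucosal gastrokine, stood at 126 and 98.9 CPM at E15 and at 92.7 and 693 CPM at E19 in GE-SCJ and stomach cells. The GE-SCJ values lay at or under the 129 and 115 CPM of immune cells, although single cells reached 3582 and 11188 CPM, and the E19 ratio was -2.90 (95% interval -3.02 to -2.79). The median E19 stomach cell, at 82.2 CPM, lay near the 79.8 CPM of the immune cells of its own tag, while the highest held 43195 CPM, so the E19 stomach sum rested on a minority of high cells. Gkn2 stood at 144, 122, 110.3 and 671 CPM, again with a low median of 105 CPM over E19 stomach cells. The GE-SCJ level of Gkn1 at E15 had 57.5% of its UMIs in 1 cell. The trefoil peptide gene Tff1 stood above the 407 and 362 CPM of immune cells, at 1641, 1568, 2506 and 6829 CPM, and its E19 ratio was -1.45 (95% interval -1.47 to -1.42), with -2.08 in Xist-only cells and -0.76, short of 2-fold, in Y-linked cells, while at E15 54.7% of the GE-SCJ UMIs lay in 1 cell. Gkn3 was low in GE-SCJ cells at both stages, with 31.0 and 60.0 CPM against 244 and 183 CPM, but the E15 ratio of -2.94 came to -0.41 within Y-linked cells and the E19 ratio of -1.60 to -0.62 without cells holding fibroblast marker UMIs. The surface mucin Muc5ac went the other way at both stages, standing at 39.3 and 18.1 CPM at E15 and 67.3 and 27.1 CPM at E19, with ratios of 1.12 (95% interval 0.58 to 1.66) and 1.31 (95% interval 1.09 to 1.53) and only 0 and 3.79 CPM in immune cells. Krt20, a keratin of mature surface cells, was the lone keratin of 11 past 2-fold at E19 (1.09% of all genes were lower), at 2.93 CPM against 33.3 CPM, and of 8 readable keratins none was at E15.

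Several other epithelial products were lower in GE-SCJ cells at both stages. Spp1, the secreted phosphoprotein osteopontin, stood at 12.8 and 39.6 CPM at E15 and 53.5 and 273 CPM at E19, but its E15 ratio of -1.55 turned to 3.55 within Xist-only cells. Gstm3, a glutathione transferase, stood at 17.4 and 48.7 CPM and then at 26.9 and 64.1 CPM, where the E19 ratio of -1.25 came to -0.37 in Y-linked cells. Vil1, the villin of brush-border microvilli, stood at 8.31, 23.6, 17.0 and 35.1 CPM in E15 GE-SCJ, E15 stomach, E19 GE-SCJ and E19 stomach cells. Its E19 ratio of -1.03 came to -0.80 in Y-linked cells and -0.74 without cells holding fibroblast marker UMIs. These 3 were found in cells of all 4 groups. Spink4, a Kazal-type protease inhibitor of mucous cells, rested on fewer, with UMIs in 6 and 11 cells at E15, where its ratio of -3.59 turned to 0.77 without the 1% of cells with the most Spink4, and 28.3 against 67.1 CPM at E19 (-0.82 on the log2 scale in Y-linked cells). Rbp4, the plasma retinol carrier, had 47.9% of its E19 GE-SCJ UMIs in 1 cell and turned direction in several alternatives. Most UMIs of several hormone genes lay in single cells, although a UMI of Ghrl (ghrelin) was found in 38 of 53, 95 of 140, 169 of 274 and 247 of 366 cells and, likewise, in 14 of 25 and 36 of 66 immune cells of the GE-SCJ tags. Of the endocrine list 3 of 4 readable genes were past 2-fold lower at E15 (Ghrl, Gast and Cpe), and 2 of 7 higher and 2 lower at E19, beside 0.826% of all genes lower at E15 and 0.5% higher and 1.09% lower at E19. When each gene's top 1% of cells were dropped, none of the 4 or the 7 was past 2-fold. Gast (gastrin) was found in 5 and 13 GE-SCJ cells at 8.31 and 1.81 CPM against 233 and 116 CPM in stomach cells, of which single cells held 854 of 901 UMIs at E15 and 1082 of 1110 at E19. In all, over 50% of the UMIs of the higher group lay in 1 cell for 12 of the 54 genes lower at E15, 9 of the 105 lower at E19, and 3 of 52 and 5 of 48 higher.

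Genes of the immediate early response, transcription factors and phosphatases induced within minutes of a stimulus, were among those higher in GE-SCJ cells. Atf3 stood at 289, 130.0, 852 and 356 CPM in E15 GE-SCJ, E15 stomach, E19 GE-SCJ and E19 stomach cells, with ratios of 1.15 (95% interval 0.96 to 1.35) and 1.26 (95% interval 1.20 to 1.32). Nr4a1, an orphan nuclear receptor, stood at 150.3, 63.4, 189 and 92.9 CPM. Its ratios of 1.25 and 1.02 came to 0.85 and 0.97 in Xist-only cells and to 0.87 and 1.02 in Y-linked cells. The E15 ratio was thus short of 2-fold in both kinds of cell. Of the list of 16, 2 of 15 readable genes were past 2-fold higher at E15 (Atf3 and Dusp1), 1 lower (the heat shock gene Hspa1a), and 1 of 16 higher at E19 (Atf3), beside 0.796%, 0.826% and 0.5% of all genes, with list medians of 0.32 and 0.53. The E19 ratio of Dusp1, 0.73, was 1.48 in Y-linked cells, 1.14 without cells holding fibroblast marker UMIs and 0.47 in Xist-only cells. Immune cells of the GE-SCJ tags held 508 and 625 CPM of Atf3. Its E15 ratio was 2.67 in Xist-only cells and 0.07 in Y-linked cells, so the E15 difference did not hold in both. In fibroblast-type cells of the GE-SCJ and stomach tags the list summed to 11511 and 8752 CPM at E15 and 11145 and 8464 CPM at E19. In immune cells of these tags it summed to 16230 and 17146 CPM at E15 and 17160 and 17791 CPM at E19. The part of tissue handling in these levels was not tested. Dbn1, the actin-binding drebrin, stood at 58.2 and 20.5 CPM at E15 and 20.5 and 8.27 CPM at E19. Its E19 ratio of 1.30 came to 0.19 in Y-linked cells and 0.90 without cells holding fibroblast marker UMIs. Xist and Tsix, the paired transcripts of the X-inactivation centre, were also past 2-fold at both stages, at 897, 241, 1412 and 681 CPM for Xist. Within Xist-only cells its ratios were 0.78 and 0.22, beside the unequal shares of Xist-only cells given above. Xist and Tsix overlap on opposite strands, so their reads need strand to be parted.

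Signalling genes were read by pathway. Of the hedgehog list, the ligand Shh was the 1 of 4 readable genes past 2-fold higher at E15 and none of 6 was at E19. Counts from the sums in this paragraph stand beside 0.796% of all genes higher and 0.826% lower at E15, and 0.5% and 1.09% at E19. It stood at 97.4 and 28.7 CPM at E15 and 53.0 and 36.9 CPM at E19, with ratios of 1.76 (95% interval 1.38 to 2.14) and 0.52 (95% interval 0.31 to 0.74). Among 11 readable WNT genes at E15 the ligand Wnt4 (60.4 and 20.7 CPM) and the receptor-removing ligase Rnf43 (43.1 and 17.4 CPM) were past 2-fold higher and the receptor Fzd7 lower (12.1 and 25.9 CPM), while none of 16 was past it at E19. The E15 ratio of Wnt4, 1.54, was 0.52 within Xist-only cells, and that of Rnf43, 1.31, was 0.61 within Y-linked cells, both short of 2-fold, as was that of Fzd7, -1.03, in both kinds of cell (-0.45 and -0.52). No gene of the BMP and TGF-beta list (12 and 18 readable) or the Notch list (3 and 8) was past 2-fold at either stage in the sums. Within Xist-only cells 3 of the 12 and 3 of the 18 BMP and TGF-beta genes were past 2-fold higher. Of all genes readable within those cells, 42 of 1332 at E15 and 110 of 7653 at E19 were. Of the FGF, EGF and PDGF list none of 12 was at E15 and 1 of 18 higher at E19, the EGF receptor ligand Areg, at 60.3 against 16.0 CPM with a log2 ratio of 1.91 (95% interval 1.64 to 2.18). Of the retinoic acid list 1 of 5 was past 2-fold higher (Aldh1a1) and 1 lower (Rbp4) at E15, and 1 of 7 lower (Rbp4) at E19, with list medians of 0.01 and -0.23. Aldh1a1, a retinal dehydrogenase, stood at 64.2 against 15.8 CPM at E15 and at 45.9 and 32.1 CPM at E19. Of the detoxification and redox list, which also holds Aldh1a1, 1 of 11 was higher and 2 lower past 2-fold at E15 and 1 of 14 lower at E19 (Sult1c2, a sulfotransferase, at 21.5 against 67.6 CPM). The 2 lower at E15 were the metal-binding Mt1 and Mt2, at 1614 against 3377 CPM and 647 against 1342 CPM, and were close at E19. Within Xist-only cells their E15 ratios of -1.06 and -1.05 came to -0.32 and 0.01, and without cells holding fibroblast marker UMIs to -0.61 and -0.44. Of the claudins and tight junction genes 1 of 12 and 1 of 13 were past 2-fold, Cldn3, lower at E15 (log2 -1.06, and -0.86 in Y-linked cells, with -0.68 at E19), and Cldn4, higher at E19 (log2 1.11, and 0.93 in Xist-only cells). The E19 ratio of Cldn3 was past 2-fold in Y-linked cells (-1.29) and without cells holding fibroblast marker UMIs (-1.43), and -0.66 in Xist-only cells. Cldn6, an embryonic claudin, had an E19 ratio of 0.89.

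Lists outside the gastric programme and signalling gave few differences, to be read beside the 0.796% and 0.826% of all genes past 2-fold higher and lower at E15 and the 0.5% and 1.09% at E19. Of the junction-associated epithelial genes none of 4 readable members was past 2-fold at E15 and 1 of 7 was lower at E19, the surface protein gene Ly6d, at 15.5 against 46.2 CPM, whose ratio of -1.57 came to -0.99 in Y-linked cells. In the basement membrane and hemidesmosome list the collagen-binding integrin chain Itga2 was 1 of 9 past 2-fold at E15, at 6.04 against 27.5 CPM, and none of 14 was at E19. Of the lipid and energy metabolism list Ldhb, a lactate dehydrogenase chain, was 1 of 10 past 2-fold at E15, higher at 108 against 45.6 CPM. At E19, 2 of 16 were lower, the apolipoprotein genes Apoe and Apoc1, of which immune cells of the GE-SCJ tag held 3747 and 61.9 CPM and columnar cells 16.1 and 7.68 CPM. The E19 ratio of Apoe, -1.59, came to 0.35 in Xist-only cells. Ttr, the thyroxine carrier transthyretin, was the 1 of 2 readable liver genes past 2-fold at E15, lower at 157 against 532 CPM, with a ratio of -1.75 that came to -0.50 in Xist-only cells. All 4 readable hemoglobin genes were past 2-fold lower in E19 GE-SCJ cells (1.09% of all genes), where the erythroid sums differed as given above, but 52.2% of the GE-SCJ and 39.4% of the stomach UMIs of the erythroid list lay in 1 cell each. None of the 4 was past 2-fold in cells called columnar by the marker genes, where Hbb-bs came from -1.83 to -0.02, or without cells holding fibroblast marker UMIs, where it came to -0.60.

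Between E15 and E19 the GE-SCJ columnar cells differed in more genes than the regions did. The gap was smaller when the fold was asked of the interval bound nearest 0. By that rule 100 of 7900 genes were past it between the stages, and 40 of 6534 at E15 and 81 of 9591 at E19 between the regions. Of 7900 readable genes 162 (2.05%) were past 2-fold higher and 273 (3.46%) lower at E19. In stomach cells 295 (3.2%) of 9207 were higher and 239 (2.6%) lower. The median log2 ratio over all genes was -0.18 in GE-SCJ cells, and with median-of-ratios scaling it was 0.05, a shift that moves the split to 288 higher and 101 lower, so directions are read against that median. Genes of digestion stood on the higher side. All 5 readable chief cell genes were past 2-fold higher, with a list median of 1.84, among them Pga5 (log2 3.29), Cblif, the intrinsic factor (log2 2.41, from 22.7 to 124 CPM), and Cym (log2 1.13, and 0.84 in Y-linked cells). In Y-linked cells 3 of the 5 were past 2-fold, where 115 of 2353 readable genes were higher and 59 lower. The ratio of Pgc, 1.39, came to 0.80 without the 1% of cells with the most Pgc. It was 0.99 in Xist-only cells and -0.26 in Y-linked cells. At E19, 6237 UMIs of Pgc lay in the 4 GE-SCJ cells of deposited cluster 5, while the 255 cells of cluster 2 held 589 CPM. Muc5b, a gel mucin, stood at 43.1 and 198 CPM at E15 and E19, and Sprr2a3, a small proline-rich protein, at 31.7 and 417 CPM. Parietal genes had 3 of 9 members past 2-fold higher, with Atp4a, the acid pump, at 68.7 and 336 CPM, while in Y-linked cells 1 was higher and 4 lower and the Atp4a ratio turned from 2.27 to -0.31. Its E19 level sat in 15 of the 274 cells, those of deposited cluster 12, which held 5849 CPM against 68.3 CPM in the 255 cells of cluster 2, near the 83.3 CPM of immune cells. The clusters were drawn on the expression of these cells, so their levels are a description. Of the immediate early list 6 of 16 were past 2-fold higher at E19, none lower, and 2 of 16 in Xist-only cells, where 174 of 6190 genes were.

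Fetal genes stood on the lower side. Of 6 embryonic precursor genes 5 were past 2-fold lower at E19 in GE-SCJ cells (list median -1.47), as were 7 of 13 fetal and imprinted genes, beside 3.46% of all genes. With median-of-ratios scaling these counts were 4 of 6 and 3 of 13, beside 101 of 7900 genes, and Igf2 went from -1.01 to -0.79. Mdk, at 907 CPM in the younger and 106 CPM in the older GE-SCJ cells, had a log2 ratio of -3.09 (95% interval -3.23 to -2.96), beside -3.95 in stomach cells. Cldn6 stood at 162 and 26.1 CPM, Vcan, the matrix proteoglycan versican, at 154 and 32.5 CPM, and Fscn1, the actin bundler fascin, at 55.1 and 8.51 CPM. Their ratios were -2.63, -2.25 and -2.69 in the GE-SCJ and -3.27, -2.17 and -2.40 in stomach cells. The regions parted for Cym, whose stage ratio was 1.13 in GE-SCJ and 2.83 in stomach cells. Sox2 and Pitx1 were past 2-fold lower at E19 in GE-SCJ cells, and 2 of 20 proliferation genes (Pcna and Stmn1) were, with a list median of -0.69. With median-of-ratios scaling Sox2 came from -1.18 to -0.96 and none of the 20 proliferation genes was past 2-fold. By the deposited cell cycle calls 13 of 53 E15 GE-SCJ cells (24.5%) and 140 of 274 at E19 (51.1%) were in G1, beside 44 of 140 and 200 of 366 stomach cells. The part of free RNA in these calls was not tested. Between regions none of the 20 proliferation genes was past 2-fold at either stage.

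**Figure D4:**
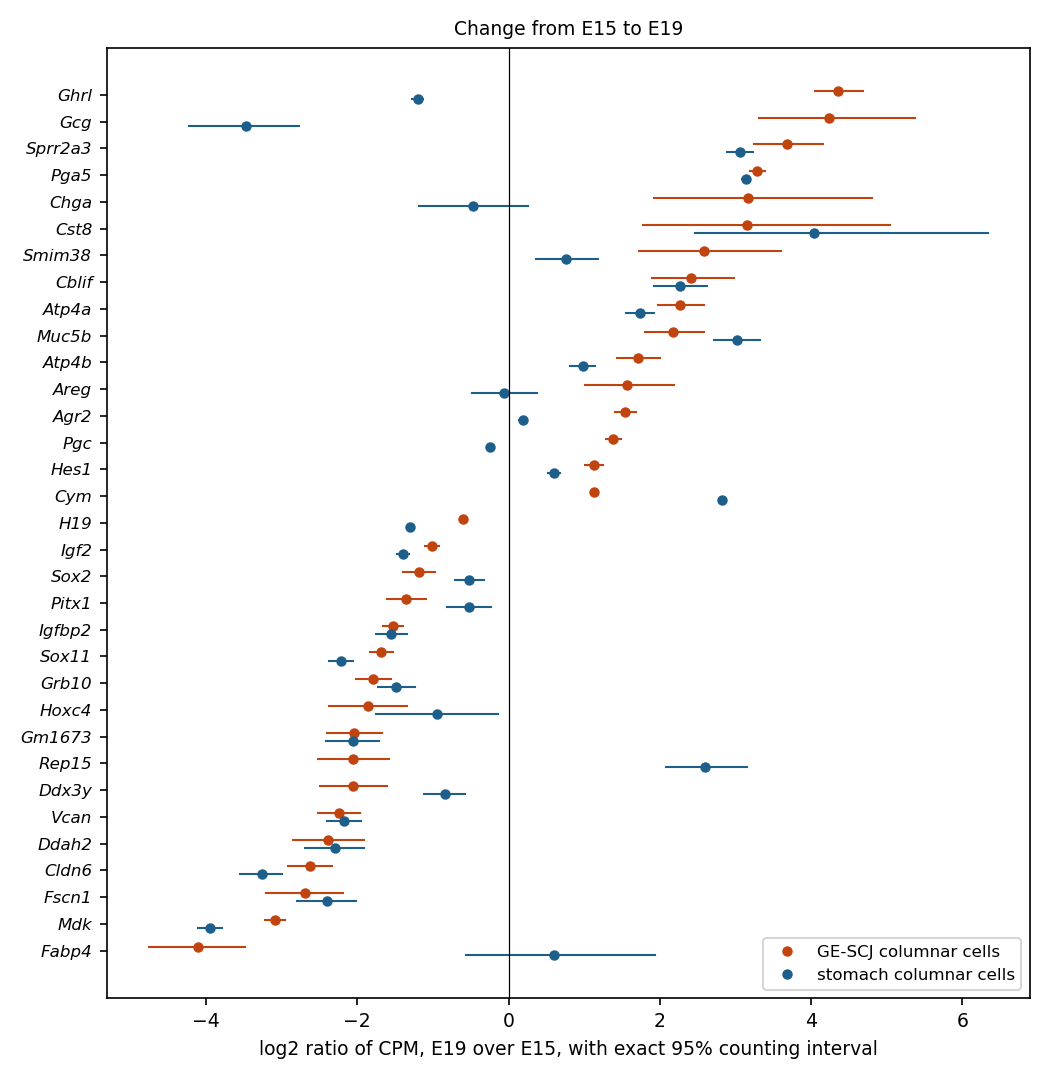
Log2 ratio of E19 over E15 (x axis, CPM with exact 95% counting intervals) in stomach columnar cells (blue) and in GE-SCJ columnar cells (red) for the genes named by rule (rows). Pga5 lies at 3.14 and 3.29, Mdk at -3.95 and -3.09, and Cym at 2.83 and 1.13 in stomach and GE-SCJ cells.

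Some of the widest ratios rested on 1 cell and describe that cell, not the class. In E19 GE-SCJ cells 8914 of 9208 UMIs of Ghrl lay in 1 cell, which also held 130 of 130 UMIs of Irs4 and 212 of 242 of Chga, the endocrine granule protein. Without it Ghrl stood at 41.2 CPM. Gcg (glucagon) had 915 of its 920 UMIs in another GE-SCJ cell. At E15 the GE-SCJ cells lacked the pancreatic enzyme transcripts Ctrb1 and Cpa1, of which 1 stomach cell held 1466 of 1469 and 157 of 157 UMIs. Nepn, a small leucine-rich proteoglycan, was spread over more cells, with 74.3 CPM in 20 of 140 E15 stomach cells and no UMI in the other 3 groups (at least 32.8-fold lower in E15 GE-SCJ cells). In E15 GE-SCJ cells 91 of 91 UMIs of Fabp4 lay in 1 cell.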

How the data were processed

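The deposited file holds 1 matrix of counts, whole UMIs of 19550 genes in 7808 cells (107865155 UMIs, 16 genes with none), which the authors made with Cell Ranger 6.1.1 (per the submitters' processing notes). A deposited table gives each cell's tag, class, cluster and cell cycle phase, and its UMI totals equalled the matrix sums in all 7808 cells. Its mitochondrial share is a percent and its phase values are a score, both as deposited and made by the authors. Every barcode was listed once, and no doublet caller was run here.

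UMIs were summed per tag and class and scaled to CPM. Intervals are 95% exact ones (Poisson for levels, Clopper-Pearson for shares, conditional on the summed UMIs for ratios). With 1 pooled sample a group no test was made. Thinning drew 5000 UMIs a cell (seed 1). Neighbours used 2000 variable genes, 30 components and counts scaled to 10000 a cell. Genes named were 12 per direction over both stages by the interval bound nearest 0, 6 per direction at each stage, 10 per direction between stages, and members of 39 lists (480 genes, 470 in the matrix). Not matched by symbol were Prss1, Cdx1, Dpcr1, Gif, Lipf, Neurog3, Nkx2-1, Hoxb1, Wnt7a and Fgf15. The cells and lists were chosen with earlier results of these data known. The ratio step was tested on simulated Poisson sums with 4-fold changes and no variation between cells. That test cannot show how the step treats genes whose UMIs lie mostly in 1 cell. Alternatives changed the cell filter, scaling, UMI minimum, fold rule and cells used. Tools were scikit-learn 1.9.0, matplotlib 3.10.9 and scipy 1.17.1 with pandas 2.3.3 under Python 3.11.15 and numpy 2.4.6.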

Additional observations from a re-analysis of the deposited data

Results flagged for a closer look

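For 6 genes the GE-SCJ columnar cells were past 2-fold above the stomach columnar cells at one stage and past 2-fold below them at the other. The difference between the stages was not tested. Dmbt1, a mucosal scavenger receptor gene, stood at 109.5 and 41.2 CPM in E15 GE-SCJ and stomach cells and 79.4 and 208 CPM at E19, log2 ratios of 1.41 and -1.39. Mucl3, a mucin-like gene, stood at 174 and 82.9 CPM in E15 GE-SCJ and stomach cells and 163 and 358 CPM at E19, ratios of 1.08 and -1.14. Both genes were spread over many cells. The ratios of Slc38a5, an amino acid transporter gene, were -4.26 and 2.44, with 178 of 222 UMIs of E15 stomach cells in 1 cell and 80 of 93 UMIs of E19 GE-SCJ cells in another. The ratios of 2210407C18Rik were 2.68 and -2.61, with 123 of the 144 UMIs of E15 GE-SCJ cells in 1 cell. Those of Ghrl were -3.55 and 2.01 and those of Gcg -1.84 and 5.87. The same E15 stomach cell held 2543 of 2826 UMIs of Ghrl and 91 of 93 of Gcg.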

How the results depend on the processing

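No replicate could be left out, since a group is 1 pooled sample. No paired analysis was possible because the result comes from no test. Counts past 2-fold (106 at E15, 153 at E19, 27 at both, 435 between stages) moved with the UMI minimum and the depth. They were 40, 75, 10 and 160 with at least 300 UMIs, 1024, 858, 124 and 1917 with at least 10 UMIs, and 27, 64, 7 and 132 with each cell thinned to 5000 UMIs, where fewer genes were readable. They were 40, 81, 10 and 100 with the fold asked of the interval bound nearest 0. Settings chosen after seeing the data gave 66 and 253 at E15 and E19 in Xist-only cells, 68, 9 and 174 at E19, at both stages and between stages in cells with Y-linked UMIs and no Xist, and 63, 88 and 10 at E15, E19 and both without cells holding fibroblast marker UMIs. Of the 27 genes, 5 were past 2-fold at both stages in Xist-only cells, 4 in Y-linked cells and 6 without fibroblast marker cells, with fewer genes readable. Without those cells the stage split was 171 higher and 125 lower. The profile correlations were 0.958 and 0.980 with log2(CPM + 1), and 0.978 at E19 over genes with at least 1000 UMIs. Of 877 values of 83 named ratios over 11 settings, 595 lay within the interval of the summed ratio, 238 outside it in the same direction, and 44 turned direction over 16 genes. Within cells with Y-linked UMIs and no Xist these were Ptn -0.014, Abi3bp -1.50, Spink4 3.20 and 2210407C18Rik -0.12 at E15, Gcg -1.03, Chga -1.93 and Ghrl -0.54 at E19, Ghrl -0.75, Atp4a -0.31, Smim38 -1.20 and Rep15 0.59 between the stages. Within Xist-only cells they were Gast 2.04, Rbp4 0.64 and Spp1 3.55 at E15. In cells called columnar by the marker genes they were Gast 1.62, Pyy 0.013 and Rbp4 1.28 at E15, Rbp4 1.13, Chga -0.061 and Ghrl -3.001 at E19, Ghrl -0.64 between the stages. Without cells with 20 or more UMIs of hormone genes and Ctrb1 they were Gast 1.01 and Rbp4 0.24 at E15, Rbp4 0.35, Gcg -0.69, Chga -0.72, Ghrl -0.071 and Sst 0.042 at E19, Ghrl -0.59, Gcg -3.01 and Chga -0.50 between the stages. Without cells with 5 or more fibroblast marker UMIs they were 2210407C18Rik -0.74 at E15, Ghrl -4.26 at E19, Ghrl -0.73, Fabp4 0.71 and Rep15 1.51 between the stages. When the top 1% of cells by UMIs of each gene were dropped they were Gast 0.47 and Spink4 0.77 at E15, Rbp4 1.73, Ghrl -0.085 and Sst 0.008 at E19, Ghrl -0.56, Fabp4 1.72 and Rep15 0.61 between the stages. The cause was not tested. The other totals stayed within 1.5 times, but the E15 split was 26 higher and 54 lower in Y-linked cells, 42 and 24 in Xist-only cells and 22 and 41 without fibroblast marker cells, against 52 and 54. The E19 split was 33 and 35, 110 and 143, and 26 and 62 in the same order, against 48 and 105. The stage split was 115 and 59 in Y-linked cells and 174 and 256 in Xist-only cells, against 162 and 273. It was 84 and 48 with thinned cells and 95 and 65 with at least 300 UMIs.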

Other observations

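After birth the columnar cells carried the same position-linked genes at other levels. In 291 columnar cells of the pup GE-SCJ and 351 of the pup stomach, Pitx1 stood at 22.0 and 8.76 CPM, Nkx6-3 at 6.96 and 15.8 CPM and Meis2 at 47.2 and 79.5 CPM. Gkn1, whose prenatal GE-SCJ sums lay at or under the immune level, stood at 3348 and 2601 CPM there, and Agr2 at 3162 and 3174 CPM. Cym stood at 47786 and 41375 CPM. The 19 columnar cells of the adult GE-SCJ held 18.2 CPM of Irx5 and 28.2 CPM of Pitx1. These are values of 1 pooled sample each, with no test.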
